A study of Homo sapiens with 18 samples.

Results

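PIM1, PIM2 and PIM3, the 3 members of the PIM family of serine/threonine kinases, were followed by gene symbol among the 56609 genes counted in the chronic lymphocytic leukemia (CLL) cell lines HG3, MEC2 and PCL12. Each line, EBV-positive and purchased from a cell bank, was left unstimulated or stimulated for 4 h with the TLR9 agonist CpG-ODN2006 at 2.5 µg/mL, hereafter CpG. There were 3 replicates of each of the 6 groups, which gave 18 libraries. The immunoglobulin heavy variable genes are mutated in MEC2 and unmutated in PCL12 and HG3, and each is 1 line, so a difference between them is one between 3 lines and not between CLL subgroups. The labels do not say whether replicates came from separate cultures, and P values then measure the spread between these samples, which may be technical.

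PIM kinases need no activating phosphorylation: the folded kinase is active as made, so that its amount, set by transcription and by the lifetimes of its mRNA and protein, sets its activity. They phosphorylate proteins of survival, cell cycle, translation and migration, among them BAD, CDKN1B, EIF4B and CXCR4, and act beside AKT. PIM1 and PIM2 are known targets of JAK-STAT and NF-κB signaling, PIM2 is highly expressed in many B-cell malignancies, and TLR9, an endosomal sensor of unmethylated CpG DNA, signals through MYD88 and IRAK kinases to NF-κB.

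In GENCODE release 44 on GRCh38, PIM1 (ENSG00000137193.14) lies at chr6:37170152-37175428 on the plus strand, PIM2 (ENSG00000102096.10) at chrX:48913182-48919024 on the minus strand and PIM3 (ENSG00000198355.5) at chr22:49960768-49964072 on the plus strand. The canonical transcript of each has 6 exons. The microRNA gene MIR6821 (chr22:49962866-49962939) lies within PIM3 on the same strand, so that reads from it, if any, cannot be told apart from those of PIM3. The sequences just before each RefSeq start site are given as a description, and their bearing on the CpG responses was not tested. Each runs from 250 to 11 bases before the start site (240 bases, RefSeq on GRCh38.p14, strand of the gene), at chr6:37169902-37170141 for PIM1, chrX:48919035-48919274 for PIM2 and chr22:49960522-49960761 for PIM3. Capitals mark the octamer ATGCAAAT on either strand, the motif of the B-cell OCT factors.
PIM1: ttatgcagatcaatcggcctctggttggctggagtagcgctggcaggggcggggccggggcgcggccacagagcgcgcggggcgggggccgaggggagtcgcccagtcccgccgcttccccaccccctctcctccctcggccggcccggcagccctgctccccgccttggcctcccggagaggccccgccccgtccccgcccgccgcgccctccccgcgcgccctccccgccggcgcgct
PIM2: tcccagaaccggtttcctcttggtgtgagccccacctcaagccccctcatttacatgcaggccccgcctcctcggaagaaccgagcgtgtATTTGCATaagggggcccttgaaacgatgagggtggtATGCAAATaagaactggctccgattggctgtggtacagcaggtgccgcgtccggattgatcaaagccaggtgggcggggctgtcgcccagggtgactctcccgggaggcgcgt
PIM3: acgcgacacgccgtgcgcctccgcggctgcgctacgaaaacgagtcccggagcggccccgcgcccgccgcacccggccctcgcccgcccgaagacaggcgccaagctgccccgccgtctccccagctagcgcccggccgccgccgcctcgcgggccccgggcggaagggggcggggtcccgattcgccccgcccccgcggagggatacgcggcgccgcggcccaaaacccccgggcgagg

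GC content was 80.4% in the window of PIM1 and 81.2% in that of PIM3, but 60.4% in that of PIM2, near the median of 57.9% over all windows. PIM2 alone of the 3 windows held the octamer, which occurred in it at 2 places, with first bases 160 and 123 bases before the start site. Of 35116 RefSeq windows of this length, 1.60% held it. No κB motif (9.56% of windows), no STAT motif TTCNNNGAA (6.40%) and no E-box CACGTG (6.01%) was found on either strand in the 3 windows, which says only that these letters are not in these bases.

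Libraries held 20382943 to 67308932 counts (median 34187400). PIM1, PIM2 and PIM3 had 758 to 26449 counts per library, so counting error was small beside the spread between replicates. In 2 libraries, HG3 unstimulated replicate 2 and MEC2 CpG replicate 2, mitochondrial transcripts took 20.2% and 19.7% of the counts, against 2.82% to 9.28% in the other 16. In replicates 2 and 3 of PCL12, under both conditions, the level of 45 genes of MEC2 relative to MEC2 cells had a median over genes of 29.0% to 31.3%. It was 2.26% and 2.36% in the libraries of replicate 1. The 45 genes were chosen as expressed in every MEC2 library and low in both of those, so the low value of replicate 1 follows from the choice. Their transcripts are called MEC2 transcripts, and whether they come from MEC2 cells or RNA was not tested. The 4 libraries of replicates 2 and 3 are called the mixed PCL12 libraries. Tests of CpG responses that rest on them were repeated without them, which leaves 1 library a group in PCL12, so that its spread is then taken from the other groups. The summed level of 9 B-cell markers was 5310 to 11528 CPM, that of 6 myeloid markers 0.902 to 8.45 CPM. Of 6 T-cell markers (34.9 to 132 CPM in sum), TRAC made up nearly all. CD3D and CD3G had 1 and 6 counts over all libraries. CD5, a surface antigen of CLL cells, averaged 44.7 CPM in unstimulated HG3 and 0.0286 and 0.896 CPM in unstimulated MEC2 and PCL12.

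PIM1 and PIM2 mRNA was higher after CpG in 8 of the 9 replicate pairs and PIM3 mRNA in 6, where a pair is the stimulated and unstimulated library with the same number in a line. Over all tested genes, 1.64% were higher in at least 8 of 9 pairs. Each of the 3 genes was higher after CpG in all 3 pairs of MEC2, as were 7.82% of tested genes. Levels are CPM, the share of a library's counts per 1e6 with library sizes scaled by TMM, a method that sets them by the bulk of genes. They are not corrected for transcript length, and levels are compared within a gene only. In bulk RNA, fewer cells with a transcript and less of it per cell cannot be told apart.

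**Figure D1:**
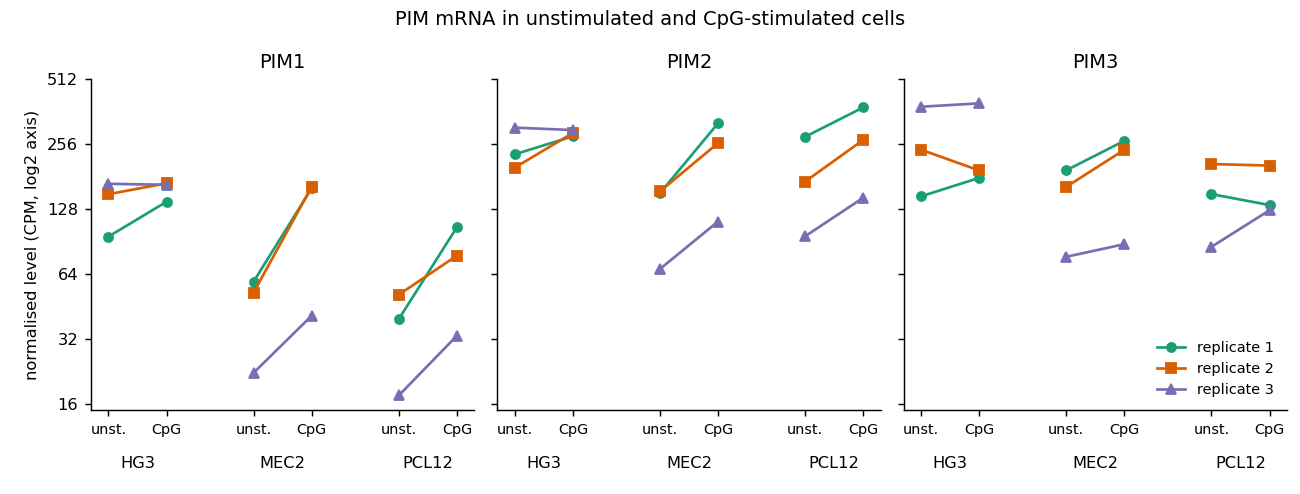
Normalised level (CPM, log2 axis) of PIM1, PIM2 and PIM3 in each of the 18 libraries, with the unstimulated and CpG-stimulated library of a replicate joined by a line. In MEC2 and PCL12 the lines of PIM1 and PIM2 all slope upward, while replicate 3 (triangles) starts and ends below replicates 1 and 2.

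PIM1 encodes the founding member of the family, found as an insertion site of a leukemia virus in mice. In HG3 its level was 95.5, 150 and 168 CPM in unstimulated replicates 1, 2 and 3, and 138.5, 169 and 166 CPM after CpG (158 ± 16.7 against 138 ± 37.6 CPM, mean ± SD, n = 3). The groups overlapped, and the ratio of the third pair was 0.989. In MEC2 it was 59.2, 52.7 and 22.4 CPM in unstimulated cells and 160, 163 and 41.1 CPM after CpG (121 ± 69.4 against 44.8 ± 19.6 CPM, n = 3). The level was 2.70-, 3.09- and 1.84-fold higher after CpG within pairs, but CpG replicate 3 stayed below unstimulated replicates 1 and 2, so the groups overlapped here too. In PCL12 it was 39.7, 51.5 and 17.6 CPM in unstimulated cells and 106, 78.0 and 33.2 CPM after CpG (72.3 ± 36.5 against 36.3 ± 17.2 CPM, n = 3). The ratios within pairs were 2.66-, 1.52- and 1.89-fold, of which the first comes from the replicate low in MEC2 transcripts.

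PIM2 encodes a kinase that supports B-cell and plasma cell survival. In HG3 its level was 230, 199 and 305 CPM in unstimulated replicates and 278, 288 and 297 CPM after CpG (288 ± 9.56 against 245 ± 54.5 CPM, n = 3). The stimulated replicates were close together within the wider range of the unstimulated ones. In MEC2 it was 152, 155 and 67.7 CPM in unstimulated cells and 320, 259 and 112 CPM after CpG (230 ± 107 against 125 ± 49.4 CPM, n = 3). Each pair was higher after CpG, by 2.10-, 1.67- and 1.66-fold. In PCL12 it was 277, 172 and 95.9 CPM in unstimulated cells and 378, 268 and 145 CPM after CpG (264 ± 117 against 181 ± 90.8 CPM, n = 3). Here the 3 pairs gave nearly the same ratio, 1.37-, 1.56- and 1.51-fold, although the unstimulated level differed 2.89-fold between replicates.

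PIM3 encodes a kinase close to PIM1 in sequence. In HG3 its level was 147, 241 and 381 CPM in unstimulated replicates and 179, 193 and 395 CPM after CpG (256 ± 121 against 256 ± 118 CPM, n = 3). Means were alike, and the pairs went in both directions. In MEC2 it was 194, 162 and 77.1 CPM in unstimulated cells and 265, 241 and 88.1 CPM after CpG (198 ± 96.0 against 144 ± 60.4 CPM, n = 3). The ratios within pairs, 1.37-, 1.48- and 1.14-fold, were above 1 in all 3. In PCL12 it was 150, 207 and 85.7 CPM in unstimulated cells and 134, 204 and 127 CPM after CpG (155 ± 42.6 against 148 ± 60.7 CPM, n = 3). Only replicate 3 of PCL12 was higher after CpG, 1.48-fold, and it is a replicate with MEC2 transcripts.

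In a fit of the 6 group means that ignored the pairs, none of the PIM genes passed an adjusted p of 0.05 in any line or in the average of the lines, where over all tested genes 0.00314% did in HG3, 0.00314% in MEC2, 0% in PCL12 and 0.00941% in the average (edgeR's quasi-likelihood test, Benjamini-Hochberg adjustment). PIM1 had a Log2FC of 0.19 (SE 0.52) in HG3, 1.44 (SE 0.53) in MEC2 and 1.00 (SE 0.53) in PCL12, with adjusted p = 1 in each. For PIM2 the Log2FC was 0.23 (SE 0.41) in HG3, 0.88 (SE 0.41) in MEC2 and 0.54 (SE 0.41) in PCL12. For PIM3 it was -0.0037 (SE 0.46) in HG3, 0.46 (SE 0.46) in MEC2 and 0.07 (SE 0.46) in PCL12, and the adjusted p was 1 in each line for both genes. Averaged over the lines, PIM1 had a Log2FC of 0.88 (SE 0.30), PIM2 of 0.55 (SE 0.24) and PIM3 of 0.17 (SE 0.27), with adjusted p = 1.00 for each. At an unadjusted p under 0.05, PIM1 and PIM2 were higher in MEC2 and in the average, against 1.51% and 2.6% of all tested genes. Exact two-sided permutation tests of the 3 against 3 CPM values gave p from 0.3 to 1 for the 9 combinations of gene and line, and 3 against 3 cannot go below 0.1. No PIM gene separated stimulated from unstimulated libraries in a line, as 3.72%, 4.72% and 4.55% of tested genes did in HG3, MEC2 and PCL12.

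With the pairs as a block in the same edgeR test, PIM1 rose in MEC2 (Log2FC 1.32, SE 0.21, adjusted p = 1.48e-06), in PCL12 (Log2FC 0.98, SE 0.21, adjusted p = 0.00791) and in the average of the lines (Log2FC 0.84, SE 0.12, adjusted p = 6.35e-09). PIM2 rose in MEC2 (Log2FC 0.85, SE 0.21, adjusted p = 0.0172) and in the average (Log2FC 0.56, SE 0.12, adjusted p = 0.00160), and had a Log2FC of 0.56 in PCL12 (SE 0.21, adjusted p = 1). PIM3 passed nowhere, with a Log2FC of 0.41 in MEC2 (SE 0.21, adjusted p = 1) and 0.18 in the average (SE 0.12, adjusted p = 1). In HG3 none of the 3 passed, with a Log2FC of 0.23 for PIM1, 0.26 for PIM2 and 0.01 for PIM3 (adjusted p = 1 for each). In this fit 0.0628% of tested genes passed and were higher in HG3, 0.295% in MEC2, 0.0408% in PCL12 and 0.417% in the average. At a nominal P value under 0.01 with |Log2FC| of at least 1, PIM1 in MEC2 passed in the paired fit, as did 0.383% of tested genes that were higher.

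The MEC2 calls rest on pairs by replicate number. Over the genes compared, CpG replicates 1 and 2 of MEC2 each stood nearer to the other's unstimulated library than to their own. The paired edgeR fit took the spread of the PIM genes wholly from the trend over all genes, which gave them nearly equal SEs. limma-voom with the same pairs, which keeps a spread for each gene, gave PIM1 an adjusted p of 0.0195 in MEC2 (Log2FC 1.39), 0.629 in PCL12 (1.02) and 0.00726 in the average (0.88), and PIM2 an adjusted p of 0.0644 in MEC2 (0.87), 0.827 in PCL12 (0.54) and 0.0119 in the average (0.55). The call of PIM1 in PCL12 was also lost when any one of its pairs was left out (adjusted p from 0.0515 to 1). Without the PCL12 libraries of replicates 2 and 3 its Log2FC was 1.41, from 1 pair, so that its SE of 0.40 and adjusted p of 0.173 rest on the assumption that this pair varies like those of HG3 and MEC2. The call of PIM2 in the average was lost without those 4 PCL12 libraries (Log2FC 0.53, adjusted p = 0.276), and that of PIM2 in MEC2 without them (0.87, adjusted p = 0.0847), without MEC2 pair 1 or 3 (adjusted p = 0.453 and 0.151) and without PCL12 pair 1 or 2 (adjusted p = 0.0705 and 0.0928).

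**Figure D2:**
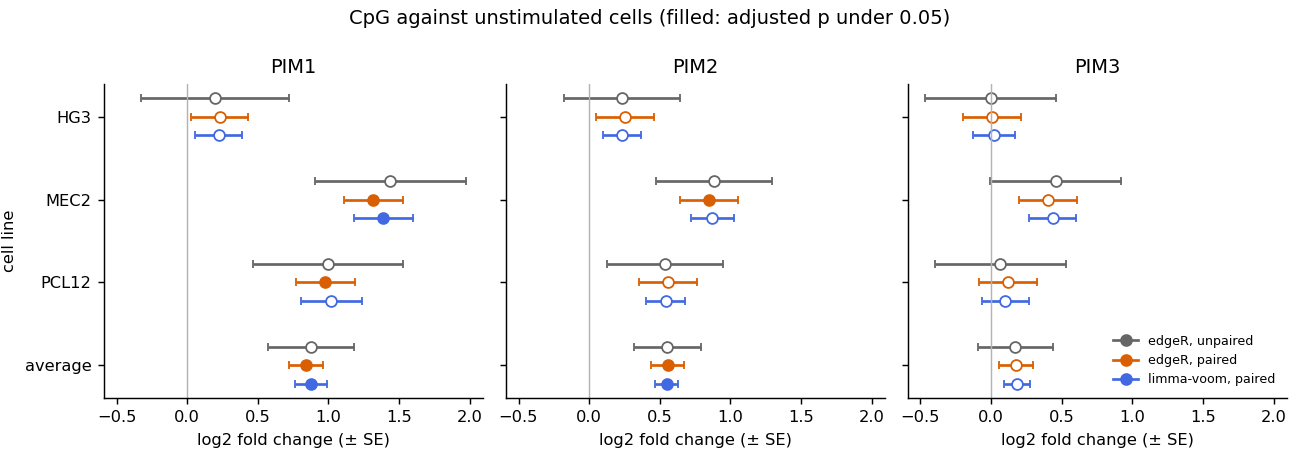
Log2FC of PIM1, PIM2 and PIM3 between CpG-stimulated and unstimulated cells (x axis, whiskers are ± 1 SE) in each line and averaged over the lines, from edgeR without pairs, edgeR with pairs and limma-voom with pairs, with filled points where the adjusted p is under 0.05. The estimates of the 3 fits are close to each other, while the SEs shrink with the pairs, and filled points appear for PIM1 and PIM2 only.

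Over the 9 pairs the log2 ratio of CpG to unstimulated cells averaged 0.84 (SD 0.57) for PIM1, 0.56 (SD 0.31) for PIM2 and 0.18 (SD 0.32) for PIM3. An exact two-sided sign-flip permutation test gave p = 0.00781 for PIM1 and p = 0.00781 for PIM2, each higher in 8 of 9 pairs, and p = 0.133 for PIM3, where 9 pairs cannot go below 0.00391. It takes the 9 pairs as separate units, although they are 3 replicates in each of 3 lines, so it speaks to these lines only. The plan had no test of these ratios, and the sign-flip tests were added to it. The pair below 0 was replicate 3 of HG3 for PIM1 and PIM2 (-0.02 and -0.04), and these ratios turned to 0.03 and 0.01 with library totals in place of TMM scaling. Within pairs the response of PIM1 exceeded that of PIM3 by 0.66 (SD 0.49), in 8 of 9 pairs (exact sign-flip permutation p = 0.00781), and that of PIM2 exceeded that of PIM3 by 0.38 (SD 0.35), in 7 of 9 (exact permutation p = 0.0234). PIM1 exceeded PIM2 by 0.28 (SD 0.42), in 7 of 9 pairs (exact permutation p = 0.0859). Adjusted by Benjamini-Hochberg over these 6 sign-flip tests, the exact p was 0.0156 for PIM1, PIM2 and PIM1 minus PIM3, 0.0352 for PIM2 minus PIM3, 0.103 for PIM1 minus PIM2 and 0.133 for PIM3. Without pairs 2 and 3 of PCL12, PIM1 averaged 0.86 and PIM2 0.54, each higher in 6 of 7 pairs (exact permutation p = 0.0312 for each). In the same 7 pairs PIM1 minus PIM3 was 0.71 (exact permutation p = 0.0312), PIM2 minus PIM3 0.39 (exact p = 0.0625) and PIM1 minus PIM2 0.32 (exact p = 0.125), where 7 pairs cannot go below 0.0156. Without the 2 pairs that hold a library rich in mitochondrial counts, PIM1 minus PIM3 was 0.63 (exact p = 0.0312), PIM2 minus PIM3 0.34 (exact p = 0.0938) and PIM1 minus PIM2 0.29 (exact p = 0.0469, in 6 of 7 pairs).

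**Figure D3:**
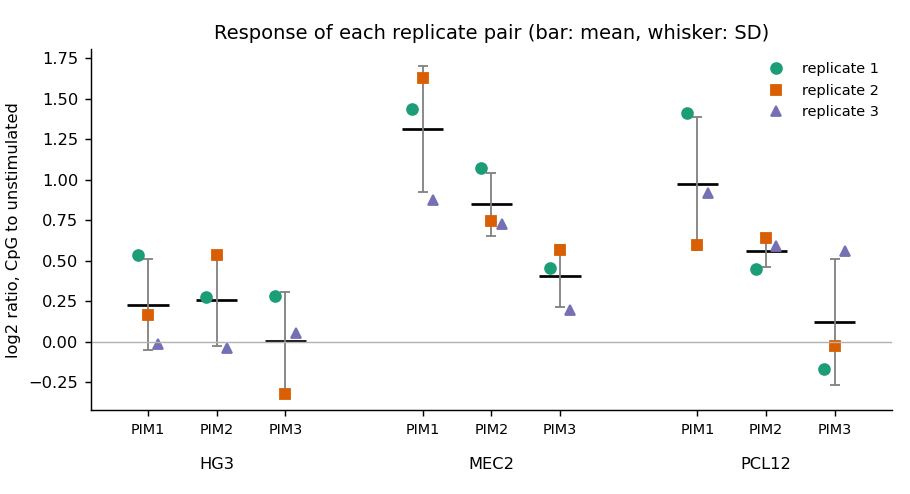
Log2 ratio of CPM in CpG-stimulated to unstimulated cells for each replicate pair (points), with the mean (bar) and SD (whisker) of the 3 pairs, by gene within cell line. In MEC2 the points of PIM1 run from 0.88 to 1.63 and all 9 points of that line are above 0, while in HG3 each gene has a point below 0.

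With all libraries the estimated response was highest in MEC2 and lowest in HG3 for each PIM gene, but the differences between lines did not pass an adjusted p of 0.05 in either fit. This order turned in the paired fit without the 4 PCL12 libraries that hold MEC2 transcripts, where PIM1 had a Log2FC of 1.41 in PCL12 (SE 0.40) and 1.34 in MEC2 (SE 0.23), and PIM3 one of -0.17 in PCL12 (SE 0.40) and 0.02 in HG3 (SE 0.23). Of all tested genes, 0.141%, 0.069% and 0.0126% passed with pairs for MEC2 against HG3, PCL12 against HG3 and PCL12 against MEC2, and 0%, 0.00314% and 0% without. The PIM1 response in MEC2 exceeded that in HG3 by a log2 difference of 1.24 in the fit without pairs (SE 0.74, adjusted p = 1.00) and 1.09 with pairs (SE 0.29, adjusted p = 0.0947). With pairs, the PIM1 difference was 0.75 between PCL12 and HG3 (SE 0.29, adjusted p = 1) and -0.34 between PCL12 and MEC2 (SE 0.29, adjusted p = 1). For PIM2 and PIM3 the differences between lines in the fit without pairs ran from -0.39 to 0.65, with SEs of 0.58 to 0.66.

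In unstimulated cells PIM1 stood highest in HG3, 138 CPM, followed by MEC2 with 44.8 CPM and PCL12 with 36.3 CPM. The level in PCL12 was lower than in HG3 by a log2 difference of -1.93 (SE 0.54, adjusted p = 0.0336), as called for 9.44% of tested genes in that comparison, and this call was lost without PCL12 replicates 2 and 3, where a difference of -1.78 rests on 1 PCL12 library (adjusted p = 0.181), and without the 2 libraries rich in mitochondrial counts (-1.86, adjusted p = 0.116). With each of the 18 libraries left out in turn it passed in 13 cases. It was lost without unstimulated HG3 replicate 2 or 3 (adjusted p = 0.107 and 0.108), unstimulated PCL12 replicate 1 or 3 (adjusted p = 0.0941 and 0.127) or CpG-stimulated PCL12 replicate 2 (adjusted p = 0.0580). MEC2 differed from HG3 by -1.62 (SE 0.54, adjusted p = 0.0734), where 9.78% of genes were called. That difference passed in 6 of 10 alternatives, among them the replicate number as a block shared over the lines (-1.84, adjusted p = 0.0122), DESeq2 (-1.66, adjusted p = 0.00846) and no low-count filter (-1.64, adjusted p = 3.74e-07). Over the 10 the adjusted p ran up to 0.202, without the 2 libraries rich in mitochondrial counts. With each of the 18 libraries left out in turn in edgeR, the difference between MEC2 and HG3 passed in 3 cases (adjusted p from 0.0170 to 0.225). The neighbours MEC2 and PCL12 did not differ beyond their spread (-0.30, SE 0.53, adjusted p = 0.945), where 2.05% were called.

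PIM2 in unstimulated cells was ordered HG3, PCL12, MEC2 with means of 245, 181 and 125 CPM, and PIM3 in the same order with 256, 148 and 144 CPM. Without the 4 PCL12 libraries that hold MEC2 transcripts PCL12 is 1 library, which stood above the mean of HG3 in PIM2 by a log2 difference of 0.19 and above that of MEC2 by 1.18. In the fit without pairs no 2 lines differed past an adjusted p of 0.05 for either gene. For PIM2 the log2 difference was -0.97 between MEC2 and HG3 (SE 0.41, adjusted p = 0.168), -0.43 between PCL12 and HG3 (SE 0.41, adjusted p = 0.585) and 0.54 between PCL12 and MEC2 (SE 0.41, adjusted p = 0.668). PIM2 was lower in MEC2 than in HG3 with the shared block (-1.13, adjusted p = 0.0288) and with no low-count filter (-0.99, adjusted p = 0.00621), which are 2 of the 10 alternatives. For PIM3 the differences were -0.83 (adjusted p = 0.306), -0.80 (adjusted p = 0.328) and 0.03 (adjusted p = 1). The first of these passed with no low-count filter (-0.85, adjusted p = 0.0283) and in none of the other alternatives. After CpG the means of PIM1 were 158, 121 and 72.3 CPM in HG3, MEC2 and PCL12. Levels after CpG were not tested between lines.

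The replicates themselves were a large part of the spread. Unstimulated levels differed between the highest and lowest replicate of a line by 1.53-fold (PIM2 in HG3) to 2.93-fold (PIM1 in PCL12). In MEC2 and PCL12, replicate 3 was below both other replicates for all 3 genes and under both conditions, an observation made after the values were seen. In MEC2 its log2 distance from the mean of replicates 1 and 2 was -1.32, -1.18 and -1.20 for PIM1, PIM2 and PIM3 in unstimulated cells and -1.97, -1.36 and -1.52 after CpG. In PCL12 it was -1.36, -1.19 and -1.04 in unstimulated cells and -1.45, -1.14 and -0.38 after CpG. Of the 9306 genes that averaged 10 CPM or more, 0.709% to 2.94% lay further below in these libraries, except for PIM3 in CpG-stimulated PCL12 with 16.2%. In HG3 replicate 3 lay above the mean of replicates 1 and 2 for each gene and condition, most for PIM3 with 1.02 in unstimulated and 1.09 in CpG-stimulated cells, although for PIM1 after CpG it lay below replicate 2. Of the 9306 genes, 56.8% and 52.2% lay lower than PIM1 and PIM2 in CpG-stimulated HG3, near the middle of all genes, and 70.1% and 71.6% in unstimulated HG3. For PIM3 the shares were 97.6% after CpG and 91.6% in unstimulated cells. In MEC2 and PCL12 the pairs share the offset of replicate 3, and what sets replicate 3 apart was not tested.

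**Figure D4:**
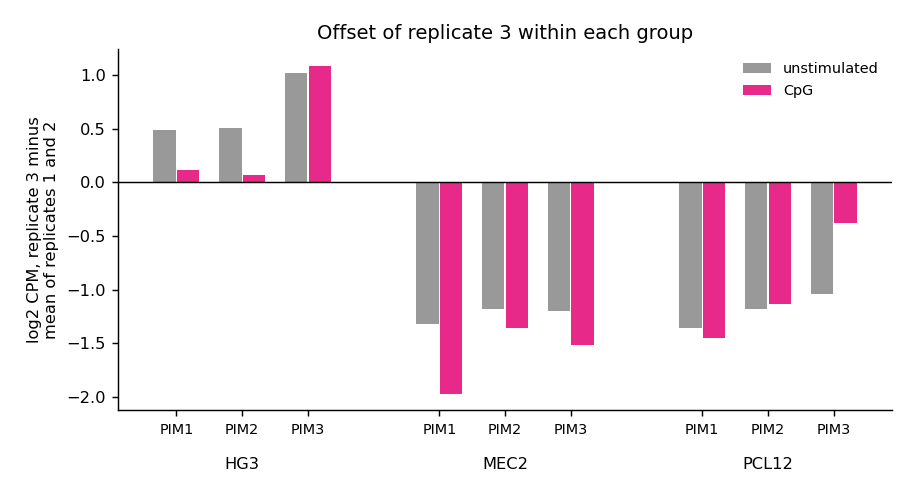
Log2 CPM of replicate 3 minus the mean of replicates 1 and 2 of the same group, for each PIM gene, line and condition (bars from 0). Bars in MEC2 and PCL12 point down, to values between -0.38 and -1.97, and bars in HG3 point up.

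Over the 18 libraries, the genes whose log2 CPM followed PIM1 most closely among those 9306 were IL4I1, an amino acid oxidase of activated B cells (Pearson's r = 0.94), the surface protein CD83 (0.93), and NFKB2, an NF-κB subunit (0.91). For PIM2 they were the survival gene BCL2L1 (0.91), the death gene BMF (0.89) and IER5 (0.88), and for PIM3 the phosphatase DUSP2 (0.97), EXOSC6 (0.92) and PPP1R15A (0.92). The PIM genes followed each other less closely: PIM1 with PIM2 0.83, PIM1 with PIM3 0.81 and PIM2 with PIM3 0.72. These points share lines, replicates and the offset of replicate 3, and the correlations are descriptions. Over the 14 libraries without the mixed PCL12 ones, the r of these 9 genes was 0.86 to 0.96. In the 9 log2 ratios, PIM1 moved most like the receptor CD40 (0.98), the RNase ZC3H12A (0.98) and the kinase MAP3K8 (0.97), PIM2 most like NUP62 (0.90), ICAM1 (0.89) and NINJ1 (0.87), and PIM3 most like ARID5A (0.97), TRAF7 (0.97) and MAZ (0.95). In the 7 pairs without those of PCL12 replicates 2 and 3, the r of these genes was 0.92 to 0.99. These 14 libraries and 7 pairs are among the points that picked the genes, so a high r in them is no separate check. CD40 averaged 146 CPM in unstimulated and 274 CPM in CpG-stimulated MEC2 and 237 and 245 CPM in HG3. BCL2L1 averaged 75.8 and 159 CPM in MEC2, 140 and 215 CPM in PCL12 and 208 and 235 CPM in HG3.

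Beside the PIM genes, the 18 NF-κB targets followed gave 0 that rose in HG3, 7 in MEC2, 3 in PCL12 and 10 in the average of the lines in the paired edgeR fit, and none that fell, where 0.0628%, 0.295%, 0.0408% and 0.417% of all tested genes rose. At an unadjusted p under 0.05 in HG3, 3 of the 18 were higher and none lower, against 3.59% of all tested genes in either direction. Their median Log2FC was 0.19, 0.75, 0.49 and 0.46, against 0, 0, 0.03 and 0.05 over all tested genes. NFKBIZ, the atypical nuclear IκB protein, rose by 2.17 in MEC2 (adjusted p = 1.39e-19) and 1.70 in PCL12 (adjusted p = 2.56e-11), and ZC3H12A by 1.75 and 1.45. In the paired edgeR fit the median gene, like the PIM genes, took its spread wholly from the trend over all genes. Such small adjusted p values lean on that trend. In HG3 the Log2FC was 0.73 for NFKBIZ (adjusted p = 0.139) and 0.64 for ZC3H12A (adjusted p = 0.373). CD83, a B-cell activation marker, rose by 0.97 in MEC2 and 0.91 in PCL12 (adjusted p = 0.0325), and NFKB2 by 1.01 in MEC2. Without pairs, edgeR called NFKBIZ in MEC2 (2.20, adjusted p = 0.0154) and NFKBIZ and ZC3H12A in the average (1.52 and 1.29, adjusted p = 0.000398 and 0.00161). Without the 4 PCL12 libraries that hold MEC2 transcripts, the paired fit called 4 of the 18 higher in MEC2, 2 in PCL12 and 3 in the average, where 0.201%, 0.0844% and 0.302% of all tested genes were. NFKBIZ and ZC3H12A were the 2 in PCL12, from 1 pair (2.19 and 1.66, adjusted p = 0.000255 and 0.0289), while CD83 no longer passed there (1.17, adjusted p = 0.764). In the fit without pairs the call of ZC3H12A in the average was lost as well.

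Of 15 genes from TLR9 to the NF-κB subunits, 3 rose in MEC2, 0 in HG3 and 0 in PCL12, and 4 in the average (paired edgeR fit), all of them NF-κB subunit genes, of which NFKB2 and RELB are also in the list of targets. Over all tested genes 0.295% rose in MEC2, 0.0628% in HG3, 0.0408% in PCL12 and 0.417% in the average. At an unadjusted p under 0.05, 3 were higher and 1 lower in HG3 and 2 were higher in PCL12, against 3.59% and 1.69% of all tested genes. REL had a Log2FC of 0.87 in MEC2 (adjusted p = 0.0112) and 0.59 in the average, RELB of 0.84 and 0.54, and NFKB1 of 0.46 in the average (adjusted p = 0.0298). Without pairs none of the 15 passed in any line or in the average, where REL had a Log2FC of 0.57, RELB of 0.54 and NFKB1 of 0.37 (adjusted p = 1.00 for each). At an unadjusted p under 0.05 in that average 3 were higher and none lower, against 4.04% of all tested genes. Without the 4 mixed PCL12 libraries, the paired fit called REL and NFKB2 in MEC2 and REL in the average (0.66, adjusted p = 0.0355), and no longer RELB or NFKB1 (0.56 and 0.52 in the average, adjusted p = 0.147 and 0.371). TLR9 itself had 37 counts over all libraries, at most 0.203 CPM. Of 19 JAK-STAT genes, STAT5A, which encodes a factor known to act on PIM1, rose in MEC2 (0.81, adjusted p = 0.0347) and in the average (0.54, adjusted p = 0.00319), and no other passed, where 0.295% and 0.417% of all tested genes rose. In this paired fit, 7 of the 19 were higher and none lower in MEC2 at an unadjusted p under 0.05, and 7 were higher and 1 lower in the average, against 3.41% and 4.54% of all tested genes in either direction. Without pairs none of the 19 passed in MEC2, in another line or in the average, where STAT5A had a Log2FC of 0.51 and the kinase gene TYK2 of 0.37 (adjusted p = 1.00 for each). With pairs and without the 4 mixed PCL12 libraries STAT5A no longer passed (0.83 in MEC2 and 0.64 in the average, adjusted p = 0.129 and 0.0682). The median of the JAK-STAT list was 0.15, against 0.05 over all tested genes.

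Downstream, none of 24 genes for PIM substrates passed in any line or in the average in edgeR, in either fit, with or without the 4 mixed PCL12 libraries, and their median Log2FC in the paired fit was 0.15 in HG3, -0.01 in MEC2, -0.04 in PCL12 and 0.02 in the average. At an unadjusted p under 0.05 in the average, 2 of the 24 passed with pairs (1 higher, 1 lower) and 0 without, against 4.54% and 4.04% of all tested genes. Within lines, with pairs, 3 of the 24 were higher in HG3 at that level and none lower, against 3.59% of all tested genes: MYC (0.52), the adaptor IRS1 (0.97) and MYB (0.41), each with adjusted p = 1. In MEC2 AKT1S1 was higher (0.47, adjusted p = 1), against 3.41%, and in PCL12 CXCR4 was lower (-0.47, adjusted p = 1), against 1.69%. MYB and IRS1 are named after their values were seen. The smallest p in the average of the paired fit belonged to CXCR4, the chemokine receptor that PIM1 phosphorylates, at -0.28 (SE 0.12, adjusted p = 0.821), and MYC at 0.25 (SE 0.12, adjusted p = 0.997). In the fit without pairs they were AKT1S1, an mTOR inhibitor, at 0.22 (SE 0.16) and BAD, a death protein, at -0.22 (SE 0.19). Of 14 parallel survival and translation kinases and their targets, SGK1 rose in the average of the paired fit (0.73, adjusted p = 0.00128), where 0.417% of all tested genes rose, and EIF4EBP1 came next (-0.24, adjusted p = 1). Without pairs none of the 14 passed, and SGK1 had a Log2FC of 0.68 (adjusted p = 1.00). It also passed with pairs without the 4 mixed PCL12 libraries (0.91, adjusted p = 0.00811). Of 6 genes for chaperones and phosphatase subunits that bear on PIM protein stability, none passed in either fit. At an unadjusted p under 0.05 the chaperone HSPA8 was higher in HG3 with pairs (0.75, adjusted p = 0.332), against 3.59% of all tested genes, and no other passed in a line or in the average, with HSPA8 at 0.17 (SE 0.13) and PPP2R1A at -0.11 (SE 0.12) in the average of the paired fit. The measurements are of mRNA, and the amount or activity of PIM protein was not measured in these files.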

How the data were processed

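Total RNA of 18 samples was sequenced as single reads of 100 nt. The values are the counts per gene symbol deposited by the authors without normalization, in 1 table of 56609 symbols. The submitters' processing notes name FastQC, MultiQC, Trimmomatic, STAR, featureCounts and hg38. Their versions, and what was done with duplicate reads, are not given in the sources used here. The paper names a Qiagen kit and a stranded reverse protocol, the labels a Promega kit and Lexogen QuantSeq. If reads come from transcript ends, CPM depends on end usage, and PCR copies were counted where not removed, so precision from counts covers counting error only.

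Genes with at least 10 counts over the 18 libraries (31872) were tested in edgeR 4.0.16 (R 4.3.3) with TMM scaling, 6 group means, robust quasi-likelihood dispersions, 12 residual degrees of freedom and Benjamini-Hochberg adjustment over all tested genes. limma 3.58.1 and DESeq2 1.42.0 were alternatives, and the methods were tested on simulated data. CPM per library, pair ratios and exact permutation tests used Python 3.11.15. Correlations used log2 of CPM plus 0.5. The series text puts 1 stimulated and 1 unstimulated sample in a replicate, which makes the pairs. Once group means were taken off, libraries of a pair correlated over 13991 genes by 0.212 to 0.480 in HG3 and 0.494 to 0.607 in PCL12. The pairs of MEC2 gave 0.189, -0.0133 and 0.611. Its CpG replicate 1 stood nearer to unstimulated replicate 2 (0.449), and its CpG replicate 2 nearer to unstimulated replicate 1 (0.388), so the MEC2 pairing by number is in doubt. The paired fit used the number within a line as a block (6 residual degrees of freedom).

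The PIM genes, gene lists and tests were chosen with earlier results of these data known. Named genes are the PIM genes, of each list up to 5 members past an adjusted p of 0.05 in a CpG contrast of either fit by smallest p, otherwise the 2 with the smallest p in the averaged contrast, and for each PIM gene the 3 most correlated genes. Alternatives were other scalings, filters and tools, the block, and each library or pair left out.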

Additional observations from a re-analysis of the deposited data

How the results depend on the processing

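Several alternatives to the fit without pairs moved calls. With the replicate block in edgeR the Log2FC of PIM1 was 1.32 in MEC2, 0.98 in PCL12 and 0.84 in the average, and that of PIM2 0.85 in MEC2 and 0.56 in the average, all past the threshold. With the block in limma-voom the PIM1 values of 1.39 in MEC2 and 0.88 in the average and the PIM2 value of 0.55 in the average passed. Without a low-count filter PIM1 passed in MEC2 (1.46) and in the average (0.89), as did the unstimulated difference between MEC2 and HG3 for PIM1 (-1.64), PIM2 (-0.99) and PIM3 (-0.85). The cause was not tested. With a library left out, the Log2FC of PIM1 ran from -0.0025 to 0.36 in HG3, 1.12 to 1.85 in MEC2, 0.61 to 1.34 in PCL12 and 0.74 to 1.01 in the average, with none past the threshold. For PIM2 these ranges were 0.13 to 0.42, 0.57 to 1.21, 0.17 to 0.98 and 0.43 to 0.70.

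PIM3 in HG3 lay so near 0 that its sign turned under most settings: 0.0058 with the block in edgeR and 0.0211 in limma-voom, 0.0128 in limma-voom without it, 0.0607 with library totals, 0.0156 without mitochondrial genes, 0.0109 with filterByExpr, 0.0206 for HG3 alone, and -0.46 to 0.40 with a library left out. In PCL12 it turned to -0.17 without replicates 2 and 3 and ran from -0.22 to 0.39 with a library left out. Between lines, the unstimulated PIM1 level in PCL12 and MEC2 differed by -0.64 to 0.0378 with a library left out and that of PIM3 by -0.29 to 0.32. The PIM2 response in PCL12 ran from -0.0695 to 0.74 against HG3 and from -0.69 to 0.12 against MEC2, and the PIM3 response in PCL12 against HG3 from -0.33 to 0.53. Without PCL12 replicates 2 and 3 that last difference was -0.17, and the unstimulated PIM2 level in PCL12 exceeded that in HG3 by 0.19.

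In the paired fit, with alternatives chosen after seeing the data except limma-voom, PIM1 in PCL12 no longer passed with filterByExpr (0.99), without PCL12 replicates 2 and 3 (1.41), in limma-voom (1.02) or with a PCL12 pair left out (0.76 to 1.16), and passed with an HG3 or MEC2 pair left out. PIM2 in MEC2 no longer passed with library totals (0.80), filterByExpr (0.84), limma-voom (0.87), without PCL12 replicates 2 and 3 (0.87), without MEC2 pair 1 or 3 (0.73 to 0.90 with a MEC2 pair left out) or without PCL12 pair 1 or 2 (0.84 each). PIM2 in the average no longer passed without PCL12 replicates 2 and 3 (0.53). PIM3 in HG3 turned to -0.0168 in DESeq2 and ran from -0.13 to 0.17 with a pair left out, and in PCL12 it turned to -0.17 without replicates 2 and 3 and ran from -0.10 to 0.27. PIM1 in MEC2 and in the average passed in each paired alternative, with 1.16 to 1.51 and 0.77 to 0.91 with a pair left out. Of 873 recomputed values, 800 kept their direction and side of the threshold, which includes values that passed in neither fit. Within a line, the count leaves out fits without a single library or pair of another line. It also leaves out the paired fits without mitochondrial genes, and those of HG3 and MEC2 without PCL12 replicates 2 and 3. Lost calls of PIM2 in MEC2 are among the values left out. With 3 libraries a group, exact tests within a line cannot pass, and MEC2 transcripts in 4 PCL12 libraries limit what PCL12 shows.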
